A study of Mus musculus with 12 samples.

Results

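The Ikaros family of zinc finger transcription factors has 5 genes in the mouse, Ikzf1 to Ikzf5, which encode Ikaros, Helios, Aiolos, Eos and Pegasus. All 5 were found by their Ensembl gene identifiers among the 43629 genes of the deposited count table, and they were described across 12 RNA-seq libraries of sorted splenic B cells. Transcripts of 3 members, Ikzf1, Ikzf3 and Ikzf5, were abundant enough to be tested. Ikzf2 and Ikzf4 were at or close to the limit of detection in every group.

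Ikaros proteins bind DNA through a cluster of zinc fingers near the N-terminus and pair with each other through a second set of fingers at the C-terminus, so members can form dimers with themselves and with one another. They recruit chromatin regulators, above all the NuRD complex, and both repress and activate genes. Ikaros is required for B lymphocytes to form and restrains proliferation and glucose uptake in pre-B cells, Aiolos is prominent in mature B cells, and Helios and Eos are best known from T cells.

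The study compared marginal zone (MZ) B cells, which lie at the border of the splenic white pulp and respond rapidly to blood-borne antigen, with and without Zfp36l1, and also profiled follicular (FO) B cells, the recirculating majority. ZFP36L1 is an RNA-binding protein that binds AU-rich elements in 3′ untranslated regions (UTRs) and promotes decay of the bound mRNA. Each of 3 groups had 4 libraries. The deficient MZ group (replicates 1, 2, 7 and 8) had the genotype Zfp36l1fl/flERT2cre/+, with both Zfp36l1 alleles floxed and 1 copy of a Cre recombinase fused to a modified oestrogen receptor. The control MZ group (replicates 3 to 6) was ERT2cre/ERT2cre, so it carried 2 copies of the recombinase with no floxed allele named. Deficient and control MZ thus differed in recombinase copies as well as in the floxed alleles. Their parts in any difference between these groups cannot be told apart. The FO group (replicates 3, 4, 7 and 8) was Zfp36l1fl/fl cre-, with floxed alleles and no recombinase. The strain was given as Zfp36l1tm1.1Tnr for all of them. Age, the promoter that drives the recombinase and the use of an inducing drug are not given in the labels used here. The sort was B220+CD93+ with high CD21 and no CD23 for MZ cells, and with CD21 and CD23 for FO cells. MZ libraries were made from 5 ng RNA with a SMARTer kit and read as 100-base pairs, whereas the design text gives a TruSeq Stranded mRNA kit and 100-base single reads for FO. The labels, however, list a SMARTer kit for FO as well, so the sources conflict on the kit. By the design text, cell type, kit, read layout and recombinase changed together between either MZ group and FO, and between control MZ and FO the floxed alleles changed too. Their parts in any MZ to FO difference cannot be told apart.

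Each library held 28938453 to 40664963 counted reads or read pairs. Zfp36l1 measured 22.0 to 37.5 CPM (read counts scaled by library size and a trimmed-mean factor) in deficient MZ and 109.6 to 126 in control MZ, a log2 change of -1.98 (SE 0.125, adjusted p = 4.92e-07 by edgeR's quasi-likelihood test with Benjamini-Hochberg adjustment). The exons removed by recombination are not given, so reads outside the deleted part could not be separated from reads of an intact mRNA. All 6 MZ marker genes were called higher in control MZ than in FO cells. Of 5 FO markers, 4 were called lower in control MZ and 1 was called higher. Among all tested genes, 42.6% were called higher and 38.8% lower in that comparison. The lists include Cr2 and Fcer2a, which encode the sort markers CD21 and CD23 and so are no independent check of identity. Between deficient and control MZ, 3 of 5 FO markers were called higher and none lower, beside 2.29% higher and 1.40% lower among all tested genes. The sum of the FO markers was 1738 to 2116 CPM against 1523 to 1651. Of the 6 MZ markers, 2 were called higher and 1 lower there, and their sum was 6152 to 6708 CPM in deficient against 7099 to 7441 in control MZ. Summed levels of 5 B cell markers were 12010 to 14915 CPM in MZ and 10360 to 10909 CPM in FO libraries, whereas 10 T cell markers together reached 2.15 to 5.62 CPM. Thy1 was at 0 in every MZ library, and Cd3e and Cd4 were at 0 in every control MZ library. T cell sums were 2.75 to 5.62 CPM in deficient MZ and 2.15 to 2.56 in control MZ. In deficient over control MZ, 1 T cell marker was called higher and none lower. Mean sums in deficient MZ, control MZ and FO were 25.7, 23.1 and 18.9 CPM for 7 macrophage and monocyte markers. They were 210, 212 and 110 for 4 plasma cell markers, and 14.7, 12.7 and 7.84 for 5 dendritic cell markers. They were 10.7, 13.7 and 3.58 for 4 platelet markers, and 7.29, 2.44 and 1.8 for 4 erythroid markers. In sorted populations like these, fewer cells of a type and less RNA per cell cannot be told apart. Between the annotated transcripts of any pair of Ikaros family members the longest exact match was 32 bases, shorter than a 100-base read.

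Because Zfp36l1 was the deleted gene, the longest annotated 3′ UTR of each member was searched on its sense strand for TATTTAT, the heptamer core of an AU-rich element. It occurred 7 times in the family, shown in capitals with 7 bases on either side, from the minus strand of GRCm38 (GENCODE M21). With these flanks included, the stretches in Ikzf2 were chr1:69537550-69537570, chr1:69536568-69536588 and chr1:69532199-69532219. The stretch in Ikzf4 was chr10:128633546-128633566, and those in Ikzf5 were chr7:131391444-131391464, chr7:131390943-131390963 and chr7:131389279-131389299.
Ikzf2, site nearest the stop codon: ctagggcTATTTATtccacta
Ikzf2, next site: aaaaggaTATTTATttctgaa
Ikzf2, last site: ttattcaTATTTATatgtagt
Ikzf4: tcaccctTATTTATctgaccc
Ikzf5, site nearest the stop codon: tcagggtTATTTATgcattag
Ikzf5, next site: atatatgTATTTATatatttt
Ikzf5, last site: catgcacTATTTATagtactt
The 3′ UTRs of Ikzf1 (3345 bases) and Ikzf3 (2084 bases) held no copy. Among tested genes with a 3′ UTR within 20% of the same length, the heptamer was present in 50.9% for Ikzf1, 72% for Ikzf2, 36.9% for Ikzf3, 49.4% for Ikzf4 and 45.8% for Ikzf5, and 29.4% of 11044 genes of any length held it. A match describes the letters and is not a measured binding site.

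Of the 13987 genes tested between deficient and control MZ cells, 3.7% were called at an adjusted p under 0.05, and none of the 3 tested members was among them. Their unadjusted p-values were 0.358 for Ikzf1, 0.212 for Ikzf3 and 0.255 for Ikzf5. In the comparison of control MZ with FO cells, 81.5% of 13843 tested genes were called, and 38.8% of those tested were called lower in MZ. Ikzf1, Ikzf3 and Ikzf5 were all called lower in MZ. Between deficient MZ and FO, 81.3% of 13895 tested genes were called and 38.4% were called lower in MZ, again with Ikzf1, Ikzf3 and Ikzf5 among them. With so many genes called, a call in these comparisons does not set a gene apart, and the sizes of the differences are given instead. The share of all tested genes with no overlap between MZ and FO libraries is not given here. A lack of overlap therefore does not set a member apart either. Both of these comparisons use the same FO libraries. No label ties a library to its own mouse, so the p-values measure only the spread between these libraries, which may be technical.

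**Figure D1:**
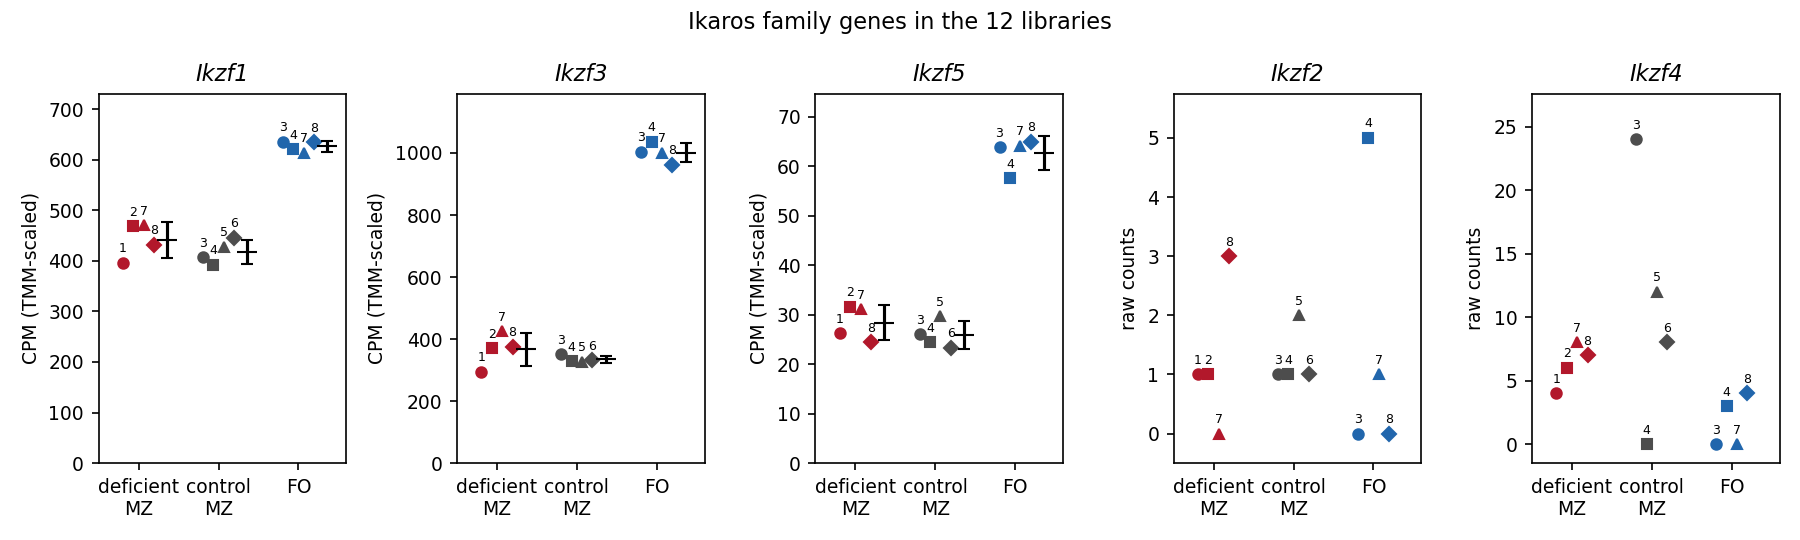
Level of each family member in the 12 libraries, as CPM for Ikzf1, Ikzf3 and Ikzf5 and as raw counts for Ikzf2 and Ikzf4; numbers beside points are replicate numbers, and black bars are the mean ± SD of 4 libraries. FO libraries lie above every MZ library for Ikzf1, Ikzf3 and Ikzf5, whereas Ikzf2 reaches 5 counts and Ikzf4 24 counts at most. Between control MZ and FO, 81.5% of all tested genes were called, and the share that separate without overlap is not given here.

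Ikzf1 (ENSMUSG00000018654, chr11:11685003-11772926, plus strand) encodes Ikaros, the founding member, and has 6 annotated transcripts. It measured 396, 468, 471 and 431 CPM in deficient MZ replicates 1, 2, 7 and 8, a mean of 442 ± 35.3 (SD, n = 4). In control MZ replicates 3 to 6 it measured 407, 392, 428 and 446 CPM, a mean of 418 ± 23.6 (SD, n = 4). The deficient and control values were interleaved, with the lowest in control replicate 4 and the highest in deficient replicate 7. The log2 change in deficient MZ was 0.07 (SE 0.073, adjusted p = 0.65 by edgeR's quasi-likelihood test with Benjamini-Hochberg adjustment). FO replicates 3, 4, 7 and 8 measured 635, 620.3, 614 and 634 CPM, a mean of 626 ± 10.5 (SD, n = 4), and every FO library lay above every MZ library. Ikzf1 was 1.49-fold higher in FO than in control MZ, a log2 change of -0.57 for MZ over FO (SE 0.051, edgeR adjusted p = 4.91e-07), and 1.39-fold higher in FO than in deficient MZ (log2 change -0.47, SE 0.068, edgeR adjusted p = 2.92e-05). This was the smallest of the members' MZ to FO differences, and 3873 of the 5374 genes called lower in control MZ changed by more. The order of Ikzf1 levels was thus FO above both MZ groups, which did not differ beyond their spread.

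Ikzf3 (ENSMUSG00000018168, chr11:98464902-98546031, minus strand, 4 annotated transcripts) encodes Aiolos, without which mice have a reduced MZ B cell compartment. FO libraries held 1004, 1036, 1000.5 and 963 CPM in replicates 3, 4, 7 and 8, with a coefficient of variation of 3.01%. Control MZ libraries held 351, 329.6, 327 and 331 CPM in replicates 3 to 6, a mean of 335 ± 11.2 (SD, n = 4) and a coefficient of variation of 3.34%. The lowest FO library was far above the highest MZ library, so the groups did not overlap. FO cells had 2.97-fold more Ikzf3 than control MZ cells, a log2 change of -1.57 for MZ over FO (SE 0.052, edgeR adjusted p = 6.46e-11), which 1590 of the 5374 genes called lower exceeded. Against deficient MZ the excess in FO was 2.67-fold (log2 change -1.42, SE 0.097, edgeR adjusted p = 2.99e-08). Ikzf3 had no exon base under an exon of the opposite strand, and the median log2 change of genes whose exon length was within 10% of its own was -0.24 for control MZ over FO.

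The deficient MZ libraries were scattered for Ikzf3. They measured 295, 371, 426 and 375 CPM in replicates 1, 2, 7 and 8, a mean of 367 ± 53.9 (SD, n = 4), with a coefficient of variation of 14.7%, against 7.99% for Ikzf1 and 12.5% for Ikzf5 in the same libraries. Replicate 1 lay below every control library and the other three lay above every control library. The log2 change in deficient MZ was 0.12 (SE 0.094, adjusted p = 0.512 by edgeR with Benjamini-Hochberg adjustment). Leaving out deficient replicate 1 raised it to 0.22 with an edgeR adjusted p of 0.097, and leaving out deficient replicate 7 brought it to 0.04, so 1 library moved this value by more than 1.5 times without a call in either case.

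Ikzf5 (ENSMUSG00000040167, chr7:131388652-131410521, minus strand, 7 annotated transcripts) encodes Pegasus, the most divergent member in sequence. It measured 26.3, 31.6, 31.1 and 24.4 CPM in deficient MZ replicates 1, 2, 7 and 8, and 26.0, 24.4, 29.7 and 23.3 CPM in control MZ replicates 3 to 6. These values overlapped over most of their range, and the log2 change was 0.12 (SE 0.104, edgeR adjusted p = 0.557). FO replicates 3, 4, 7 and 8 held 63.8, 57.5, 64.2 and 64.9 CPM, all well above the MZ libraries. Ikzf5 was 2.40-fold higher in FO than in control MZ (log2 change -1.26 for MZ over FO, SE 0.074, edgeR adjusted p = 9.91e-09) and 2.16-fold higher than in deficient MZ (log2 change -1.11, SE 0.089, edgeR adjusted p = 1.33e-07).

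Ikzf5 may have been counted with reads from other genes or without some of its own. Of its exon bases, 84.5% lie under exons of Pstk or Gm44624 on the opposite strand, and the sources used here do not give the strand setting of the counting, so the genes cannot be told apart and the Ikzf5 values are uncertain. Pstk, which encodes a kinase acting on seryl-tRNA for selenocysteine, measured 12.6, 12.3 and 12.7 CPM on average in deficient MZ, control MZ and FO (log2 change -0.03 for control MZ over FO, edgeR adjusted p = 0.752). Among genes with 80 to 90% of their exon bases under the opposite strand, 25 were tested between control MZ and FO. Their median log2 change was -2.36 and 76% were called lower in MZ, against a median of 0.09 and 37.4% among 9397 genes with no such overlap. The part of this overlap in the Ikzf5 difference was not tested. Between deficient and control MZ, both made with 1 kit, the same class of 16 genes had a median of 0.01.

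**Figure D2:**
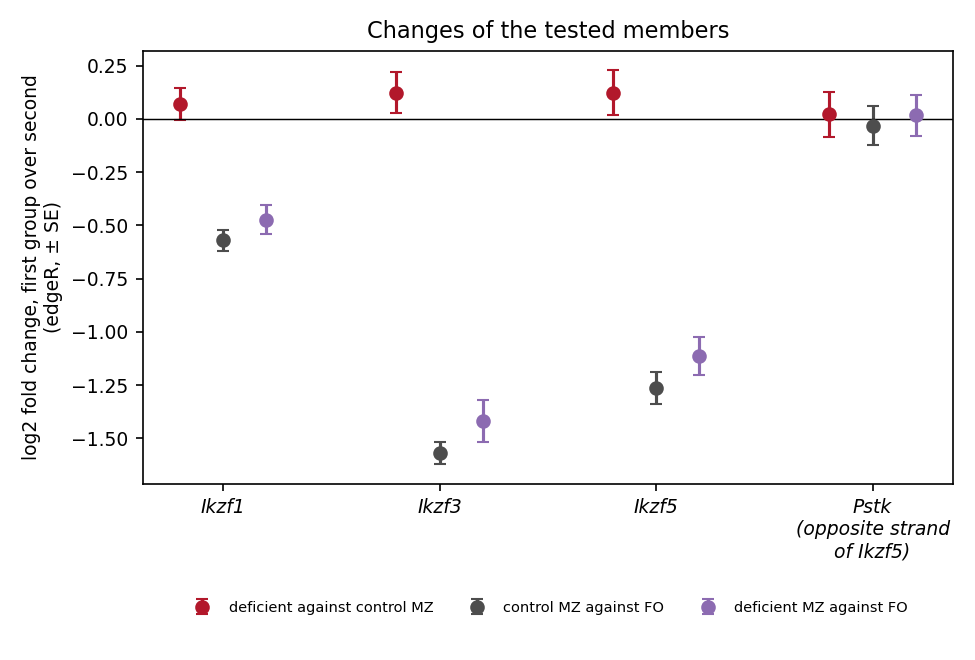
Log2 fold change of Ikzf1, Ikzf3, Ikzf5 and, for reference, Pstk in the 3 comparisons of groups, from edgeR; bars are ± 1 SE. The 3 members lie between 0.07 and 0.12 for deficient over control MZ and between -1.57 and -0.47 for MZ over FO, and Pstk lies near 0 throughout.

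Ikzf2 (ENSMUSG00000025997, chr1:69531214-69687245, minus strand, 9 annotated transcripts) encodes Helios, which marks regulatory T cells. Its raw counts were 1, 1, 0 and 3 in deficient MZ, 1, 1, 2 and 1 in control MZ, and 0, 5, 1 and 0 in FO libraries. The sums were 5, 5 and 6 counts over 4 libraries each, and the groups overlapped completely. A count of 3 in 1 library, the most that a library with none could hide at the 95% level, corresponds to 0.0697 to 0.0961 CPM here. Ikzf2 was therefore at the limit of detection in all groups, and no fold change is given. This limit covers counting error only.

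Ikzf4 (ENSMUSG00000002578, chr10:128630843-128645991, minus strand, 8 annotated transcripts) encodes Eos, a partner of FOXP3 in T cells. Its raw counts were 4, 6, 8 and 7 in deficient MZ, 24, 0, 12 and 8 in control MZ, and 0, 3, 0 and 4 in FO libraries. Control MZ replicates ranged from none to the highest count of the series and overlapped both other groups. Scaled to CPM, the deficient MZ libraries (0.117 to 0.224) lay above the FO libraries (0 to 0.112), although the raw counts of these groups met at 4. The sums were 25, 44 and 7 counts, and control replicate 3 alone held 24 of the 44. Ikzf4 did not pass the filter on low counts. In the authors' deposited table its log2 change for control MZ over FO was 1.74 (SE 0.875, adjusted p = 0.0696). Helios and Eos are both T cell factors, and the 10 T cell markers summed to no more than 5.62 CPM in any library.

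Levels of different genes were compared as CPM per kilobase of the union of annotated exons. In FO cells Ikzf3 (114 ± 3.44, SD, n = 4) and Ikzf1 (108 ± 1.82, SD, n = 4) were nearly level, and Ikzf5 followed at 10.9 ± 0.597. In control MZ cells Ikzf1 (72.4 ± 4.08) led, Ikzf3 was at 38.2 ± 1.28 and Ikzf5 at 4.52 ± 0.486. Deficient MZ cells had the same order, with 76.4 ± 6.11 for Ikzf1, 41.9 ± 6.16 for Ikzf3 and 4.95 ± 0.620 for Ikzf5. Ikzf4 reached at most 0.0452 and Ikzf2 at most 0.00406 on this scale as group means. Of the tested genes, 3.36% lay above Ikzf1 in FO and 4.39% in control MZ. For Ikzf3 the shares were 3.14% in FO and 9.84% in control MZ, and for Ikzf5 37.1% and 56.1%. As a share of all reads of the family, Ikzf3 made up 59.2% in FO and 43.0% in control MZ, and Ikzf1 made up 37.1% and 53.7%.

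The balance of Aiolos to Ikaros transcripts was measured within each library, which removes the library scaling. The ratio of Ikzf3 to Ikzf1 reads per kilobase was 0.492, 0.523, 0.597 and 0.574 in deficient MZ replicates 1, 2, 7 and 8. It was 0.569, 0.555, 0.504 and 0.490 in control MZ replicates 3 to 6. The MZ groups overlapped, with means of 0.546 ± 0.0479 and 0.530 ± 0.0383 (SD, n = 4), and their mean log2 ratios differed by 0.04 (SE 0.082, exact two-sided permutation p = 0.571, adjusted over 3 comparisons 0.571). FO replicates 3, 4, 7 and 8 had ratios of 1.04, 1.103, 1.08 and 1.002, all above every MZ library. The mean log2 ratio of control MZ was lower than that of FO by a log2 difference of -0.997 (SE 0.060, exact permutation p = 0.0286, adjusted p = 0.0429), and that of deficient MZ by -0.95 (SE 0.070, exact permutation p = 0.0286, adjusted p = 0.0429). The smallest p that 4 against 4 libraries can give is 0.0286. The absolute ratio depends on the length used, because the Ikzf3 exon union (8754 bases) is much longer than its longest transcript (4607 bases). With longest transcripts the mean ratios were 0.928 in deficient MZ, 0.899 in control MZ and 1.79 in FO, and the differences between groups on the log2 scale were the same by construction. Whether Ikzf3 lies level with Ikzf1 or above it in FO cells therefore depends on that choice.

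**Figure D3:**
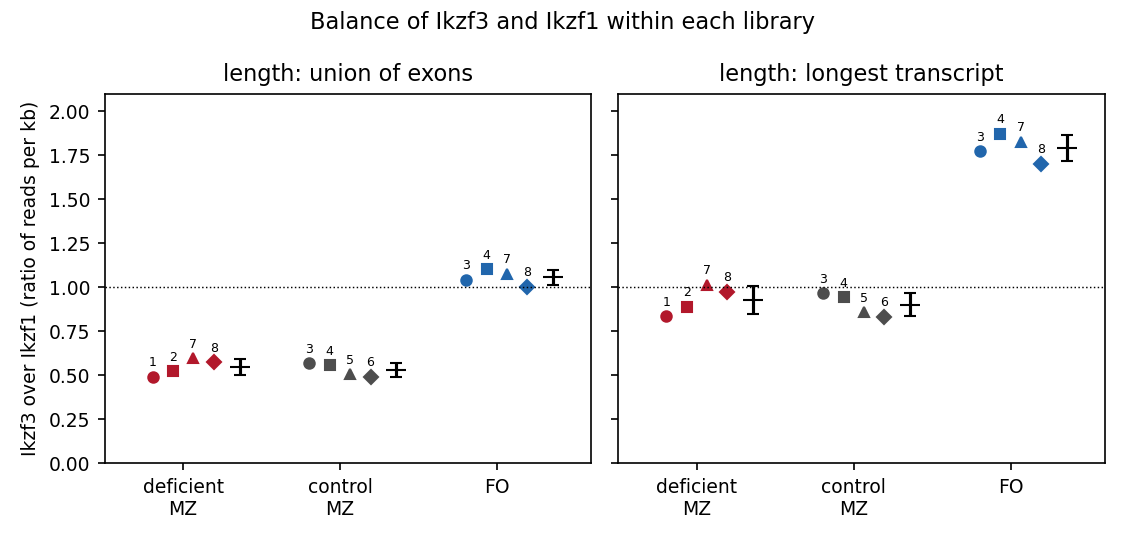
Ratio of Ikzf3 to Ikzf1 reads per kilobase in each library, with lengths from the union of exons (left) or the longest transcript (right); numbers are replicate numbers, black bars the mean ± SD of 4 libraries, and the dotted line a ratio of 1. FO ratios (1.002 to 1.103 at left) lie above all MZ ratios (0.490 to 0.597 at left) on either scale.

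The tested genes with the most similar pattern over the 12 libraries were found by the root mean square difference of mean-centred log2 CPM. For Ikzf1 these were Cnot3 (0.0498), a subunit of the CCR4-NOT deadenylase, Txndc16 (0.0529) and the kinase gene Nek7 (0.0536), against a median of 0.440 over 10418 candidates. For Ikzf3 they were Ddi2 (0.0798), Spag9 (0.0805) and Madd (0.0808), against a median of 0.782. For Ikzf5 they were Rps6ka5 (0.0738), Eif2a (0.0798) and Tlk2 (0.0892), against a median of 0.663. These genes were picked for the smallest difference. Among the members themselves the difference was 0.205 between Ikzf3 and Ikzf5, 0.334 between Ikzf1 and Ikzf5 and 0.468 between Ikzf1 and Ikzf3. The MZ to FO difference is part of each of these patterns.

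Genes of the Ikaros pathway were read from the same fits as 5 lists. For reference, 2.29% of all tested genes were called higher and 1.40% lower in deficient over control MZ, and 42.6% higher and 38.8% lower in control MZ over FO. In deficient over control MZ, 3 of 5 FO markers were also higher, and their part in the changes of the lists was not tested. Of 14 NuRD subunits, the remodelling and deacetylase complex that Ikaros and Aiolos recruit, 2 rose in deficient over control MZ, none fell and 12 were not called, with a median log2 change of 0.02 against 0.00 for all tested genes. The 2 were the deacetylase gene Hdac1 (log2 change 0.31, SE 0.081, edgeR adjusted p = 0.0492) and Mbd3 (0.31, SE 0.069, edgeR adjusted p = 0.0243). Both calls were lost when single libraries were left out, Hdac1 for every library but control replicate 5, and Mbd3 for control replicates 3, 4 and 5 and deficient replicate 8. Between control MZ and FO, 6 subunits were higher in MZ, 5 lower and 3 not called, with a median of 0.09 against 0.05, where 81.5% of all tested genes were called. The ATPase Chd4, the NuRD remodeller most closely tied to Ikaros, measured 104 ± 6.26 CPM in control MZ and 659 ± 13.1 in FO (SD, n = 4), a log2 change of -2.65. Its paralogue Chd3 (-3.10) and the linker Gatad2b (-2.71) were lower too, whereas the related linker Gatad2a was higher (0.89). In deficient MZ over FO, 8 were higher, 5 lower and 1 not called, beside 42.9% higher and 38.4% lower among all tested genes.

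Of 5 other corepressors and remodellers, none was called between deficient and control MZ (median 0.06). Between control MZ and FO, 2 were higher and 2 lower in MZ (median -0.07), beside 81.5% called among all tested genes. Sin3a (-1.24) and the SWI/SNF ATPase Smarca4 (-0.55) were lower, and Ctbp1 (0.80) was higher. Ctbp2 measured 1.87 CPM in control MZ and 0.0774 in FO, near the limit of detection in FO. The cereblon ubiquitin ligase, through which thalidomide analogues degrade Ikaros and Aiolos in human cells, had 6 genes listed. Of these, Dda1 alone was called in deficient over control MZ (0.39, SE 0.077, edgeR adjusted p = 0.0135), a call lost without control replicate 4. Between control MZ and FO, 2 were higher (Dda1 1.02, Rbx1 0.63), 3 lower (among them Ddb1 -0.46 and Cul4b -0.62) and 1 not called, again beside 81.5% called among all tested genes. Deficient MZ over FO gave the same counts for both lists, beside 81.3% called among all tested genes.

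Of 17 genes listed here as restrained by Ikaros in pre-B cells, 10 were tested. In deficient over control MZ 4 rose and none fell, with a median of 0.17 against 0.00 for all tested genes, of which 2.29% were called higher. In the same comparison 3 of 5 FO markers were called higher. The listed genes that rose included the proliferation genes Myc (0.70, edgeR adjusted p = 0.00341) and Ccnd3 (0.64, edgeR adjusted p = 0.000885). The others were the glucose transporters Slc2a6 (1.71, edgeR adjusted p = 2.59e-05) and Slc2a1 (0.31, edgeR adjusted p = 0.0408). The Slc2a1 call was lost on leaving out any single library other than deficient replicate 8. Ikzf1 itself did not pass the test in this comparison, and whether the change of these genes has a relation to Ikaros was not tested. Between control MZ and FO, 4 were higher and 3 lower in MZ (median 0.16 against 0.05, beside 81.5% of all tested genes called), with Myc (2.47) and Ldha (1.097) higher and Slc2a6 (-2.95) and Insr (-1.79) lower. All 5 genes listed here as raised by Ikaros in pre-B cells were tested. In deficient MZ, Txnip, an inhibitor of glucose uptake, rose (0.41, edgeR adjusted p = 0.0345) and none fell (median -0.04), a call lost without control replicate 3, 4 or 6 or deficient replicate 8. Between control MZ and FO, 4 were lower in MZ and 1 was higher (median -1.27 against 0.05), beside 38.8% called lower and 42.6% called higher among all tested genes. The cell cycle inhibitor gene Cdkn1b (-3.88), the kinase gene Stk11 (-2.44) and Txnip (-1.27) were lower, and the cannabinoid receptor gene Cnr2 (0.49) was higher. Deficient MZ over FO gave 4 higher and 3 lower for the restrained genes and 1 higher and 4 lower for the raised genes. Among all tested genes, 42.9% were called higher and 38.4% lower in that comparison.

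**Figure D4:**
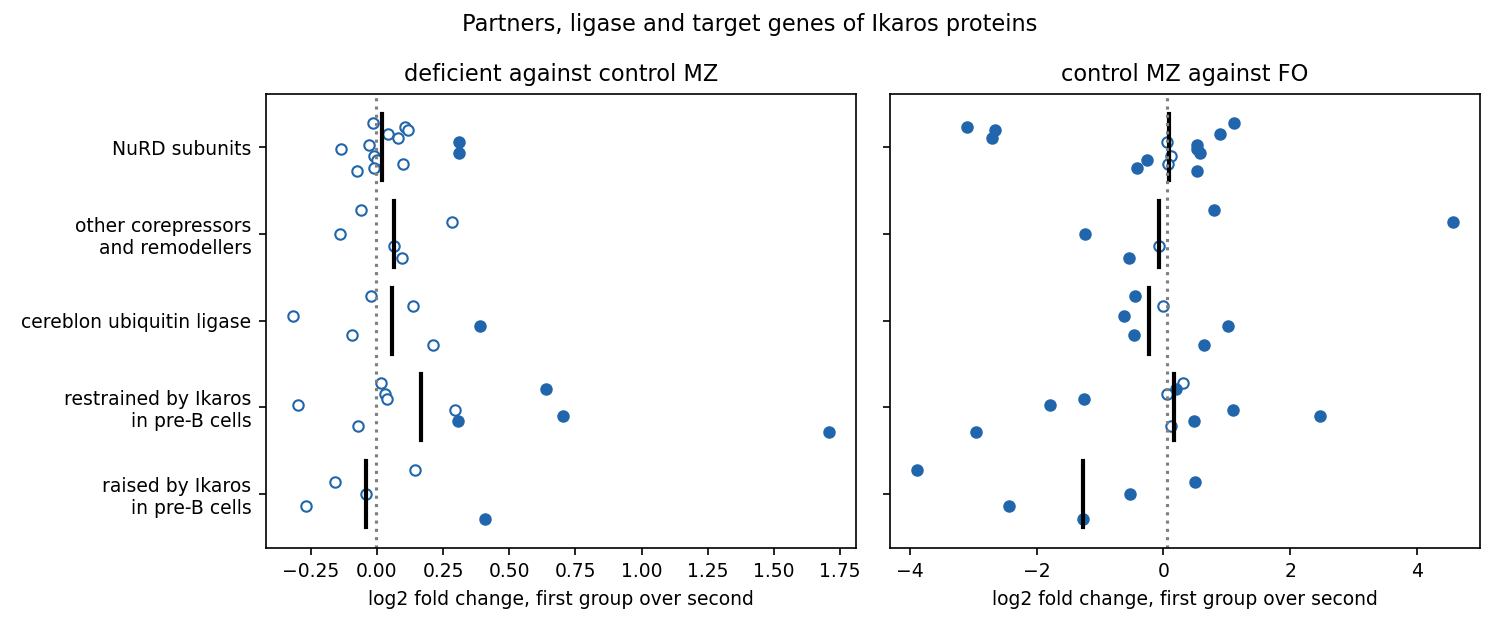
Log2 fold change of each tested gene in the 5 lists, for deficient over control MZ (left) and control MZ over FO (right); filled points passed the edgeR test at an adjusted p under 0.05, black bars are list medians and the dotted line is the median of all tested genes. The horizontal scales differ between panels: called changes run from 0.31 to 1.71 at left, and Cdkn1b at -3.88 is the lowest at right.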

How the data were processed

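The authors deposited raw counts per Ensembl gene, counts divided by DESeq2 size factors (a normalised signal), and tables of log2 fold changes with p-values. Trimming with Trim Galore, alignment with TopHat2 2.0.12 to GRCm38, counting with HTSeq and testing with DESeq2 1.10.1 are named in the submitters' processing notes. No source used here gives the annotation release, counting mode or strand setting. The labels list a SMARTer kit for FO samples too, unlike the design text.

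Raw counts were tested per comparison on its 8 libraries with edgeR 4.0.16 in R 4.3.3 (TMM, the default filter on low counts by group, quasi-likelihood test, Benjamini-Hochberg adjustment, called under 0.05). The edgeR steps were tested on simulated data in which few genes changed. That setting does not cover MZ against FO, where 81.5% of tested genes were called for control MZ. Rows that name no gene numbered 0. Symbols, lengths and UTRs came from GENCODE M21 for 42548 of 43629 genes. Replicates within a group differed by more than sampling noise. Members and lists were chosen with earlier results of these data known, so they are no independent support. Named were all members, Zfp36l1, at most 4 called genes of each list per comparison by smallest p, and the 3 nearest genes by pattern. Pstk was added for its overlap with Ikzf5. Alternatives were DESeq2 1.42.0, its size factors in edgeR, no filter, a fit on all 12 libraries, leaving out each library, a replicate block and longest-transcript lengths. A stretch of coding sequence shared within the family was compared and is not reported here.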

Additional observations from a re-analysis of the deposited data

Results flagged for a closer look

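Among 18 groups of 4 libraries examined, 2 held a library far from the others, where chance gives about 1 in 20 groups. Ikzf5 measured 57.5 CPM in FO replicate 4, below the other three FO libraries at 63.8 to 64.9, and still above every MZ library. Ikzf2 measured 0.0478 CPM in control MZ replicate 5, which is 2 counts where the other three libraries had 1 count each. The rate of 1 in 20 does not apply to counts this small, so no excess can be read from 2 in 18 groups.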

How the results depend on the processing

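Ikzf1, Ikzf3 and Ikzf5 kept their direction and their side of the threshold in all 3 comparisons under every alternative run. Leaving out each of 8 libraries in turn gave log2 changes of -0.60 to -0.54 for Ikzf1, -1.60 to -1.55 for Ikzf3 and -1.33 to -1.22 for Ikzf5 in control MZ over FO. For deficient over control MZ they were 0.04 to 0.12, 0.04 to 0.22 and 0.07 to 0.19, with no call. The count of called genes between deficient and control MZ, 517, became 1049 with DESeq2 and 788 in a fit on all 12 libraries, and ran from 253 (without control replicate 4) to 483 (without deficient replicate 1) on leaving out single libraries; the cause was not tested. It also fell to 306 without control replicate 3, 311 without control replicate 6 and 299 without deficient replicate 8. With longest transcripts the Ikzf3 to Ikzf1 ratio moved to 0.928, 0.899 and 1.79 in deficient MZ, control MZ and FO through the lengths alone.

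Same-numbered MZ and FO libraries had different genotypes, so a shared replicate number does not mark the same mouse. Whether it marks a shared batch was not tested. The groups shared at most 2 numbers. Deviations from group means in same-numbered libraries correlated at -0.07 and -0.14 for control MZ with FO. For deficient MZ with FO they correlated at 0.26 and -0.02. With a replicate block the control MZ over FO changes were -0.64 for Ikzf1, -1.57 for Ikzf3 and -1.25 for Ikzf5, and the count of called genes was 9951 against 11278. The blocked deficient MZ over FO changes were -0.44 for Ikzf1, -1.26 for Ikzf3 and -1.19 for Ikzf5. The blocked changes rest on the libraries with a shared number alone, because every other library fills a block by itself. No paired analysis was possible for deficient against control MZ because these groups share no number. Without the filter on low counts Ikzf4 had a log2 change of 2.28 for control MZ over FO (edgeR adjusted p = 0.0418, DESeq2 adjusted p = 0.0778) on 44 and 7 counts. Depth limits what can be said of Ikzf2 and Ikzf4.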
